A study of Drosophila melanogaster with 6 samples.

Results

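The RR cuticle proteins are structural proteins of the insect exoskeleton that carry the Rebers and Riddiford chitin-binding sequence. Of the 17807 genes in the deposited table, 97 had a symbol of this family (Cpr, Lcp, Ccp84A, Acp65A, Pcp or Edg84A), and 72 of these, whose normalized counts averaged 10 or more across the 6 libraries, are described here. They comprise 16 Lcp genes, named for the larval cuticle, of which 1 is annotated as a pseudogene (Lcp1Psi), 1 gene named for the pupal cuticle (Pcp), 1 for the adult cuticle (Acp65Aa), 6 genes of the Ccp84A group and 48 Cpr genes whose symbols carry no stage. A stage in a symbol is the history of its naming and not a measurement made here. The mean was at least 10 in both groups for 69 of the 72, and Cpr47Ea, Cpr49Aa and Ccp84Ac were kept through the values of 1 group. Just inside the limit lay Ccp84Af, with a mean of 16.1, and just outside it Cpr35B, with 9.12, and Edg84A, Cpr57A and Cpr72Ec were at 0 in every library.

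Expression was measured by RNA sequencing of muscle-enriched body wall lysates of Drosophila melanogaster. The control genotype was UAS-dcr2;;Dmef2-Gal4>UAS-mCherryRNAi and the knockdown genotype UAS-dcr2;;Dmef2-Gal4>UAS-tmodRNAi, with 3 libraries each. The Mef2 driver and the Dicer-2 transgene, which strengthens RNA interference, were therefore present in both groups, and the control hairpin targets mCherry, which has no counterpart in the fly genome. Lysates of 7 to 10 larvae, at about 90 h, were pooled per library, although the tissue label names the adult body wall, and the series title addresses muscle degeneration after loss of tropomodulin. The labels number the libraries as biological replicates, give no batch, and name Trizol extraction and the SMARTerAmpSeq kit. Mef2-Gal4 is known as a driver of muscle, and cuticle genes are known as genes of epidermis and trachea. Which cells of the lysates made the RR transcripts was not measured here.

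Cuticle is secreted by epidermal and tracheal cells in layers of chitin fibres and protein, and RR proteins bind the chitin. The epidermis changes the set of RR genes it transcribes at each moult. Lcp transcripts are abundant in the last larval instar, and pulses of the steroid hormone ecdysone time the change to the prepupal and pupal sets. Edg84A and Edg78E are known as prepupal genes that are transcribed after an ecdysone pulse.

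The libraries held between 83824273 and 110151028 reads assigned to genes, and 3 reads corresponded to between 2.41 and 3.31 normalized counts. The targeted gene, tmod, had 70528, 92366 and 75101 normalized counts in control replicates 1 to 3 and 13993, 13734 and 12980 in the knockdown libraries. The knockdown mean was 17.1% of the control mean (log2 fold change -2.54, SE 0.12, adjusted p = 0.0045, limma). Control replicate 1 stood apart from control replicates 2 and 3 in the RR genes, and each control library is therefore given on its own below. The 15 muscle markers examined (among them Mhc, Act57B and Tm2) were all present and summed to 8088817 normalized counts in control replicate 1, to 2615253 and 3276135 in control replicates 2 and 3, and to between 12506345 and 14134857 in the knockdown.

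The RR genes took a large part of every library. Their share of gene reads was 15.8%, 9.43% and 11.3% in control replicates 1 to 3 and 13.5%, 13.9% and 11.7% in knockdown replicates 1 to 3. The group means, 12.2% ± 3.3 and 13.1% ± 1.2 (SD, n = 3 each), differed by less than the spread between libraries (exact two-sided permutation p = 0.7, where 0.1 is the smallest value that 3 libraries against 3 allow). No Wilson 95% interval of a share of the 72 genes reached further than 0.00699 percentage points to either side, and these intervals cover counting error only.

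The make-up of that share differed more than its size. Lcp genes took 14.9% of the reads in control replicate 1, 6.29% and 8.53% in control replicates 2 and 3, and 11.0% to 13.3% in the knockdown (exact permutation p = 0.4). Cpr genes took 0.912%, 2.94% and 2.57% in control replicates 1 to 3 and 0.564%, 0.628% and 0.627% in knockdown replicates 1 to 3. The Cpr shares of the groups did not overlap (exact permutation p = 0.1, the smallest possible), and 1 gene, Cpr49Ac, gave most of it in control replicates 2 and 3. Control replicate 1 lay nearer to the knockdown libraries than to the other controls in both shares.

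**Figure D1:**
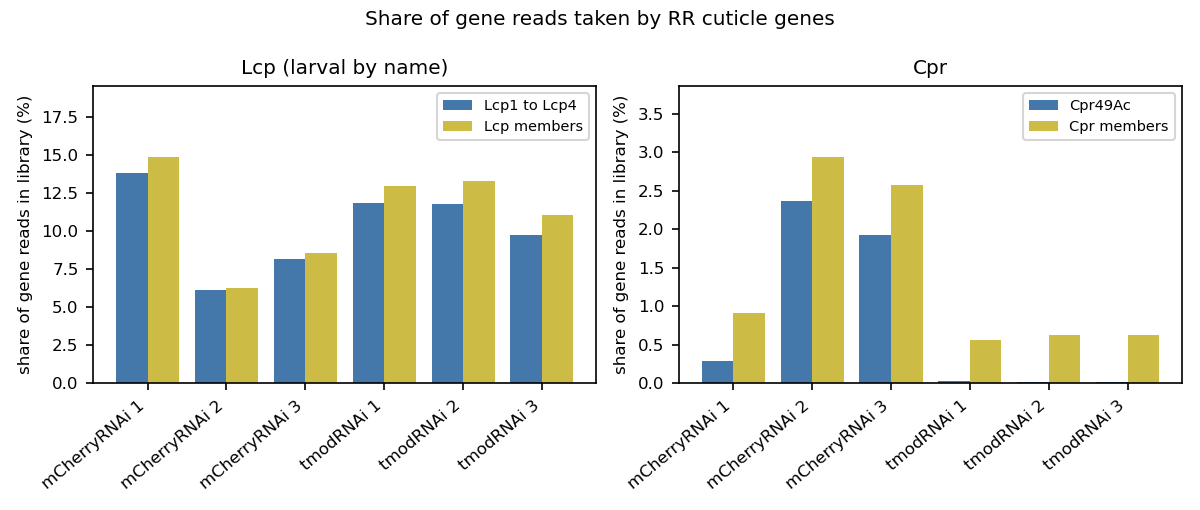
Share of all gene reads (y axis, percent) taken by Lcp genes (left) and Cpr genes (right) in each library (x axis). Blue bars show Lcp1 to Lcp4 and Cpr49Ac, which hold most of the Lcp reads in every library and most of the Cpr reads in control replicates 2 and 3. Yellow bars show the 16 Lcp and the 48 Cpr genes, with Lcp shares from 6.29% to 14.9% and Cpr shares from 0.564% to 2.94%.

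Between the groups, 14 RR genes were higher and 10 lower in the knockdown at an adjusted p-value under 0.05 (limma with Benjamini-Hochberg adjustment over the 10969 genes tested), and 48 did not pass. The 24 calls are 33.3% of the 72 genes, beside 23.8% of all tested genes, and they include Cpr47Ea and Ccp84Ac, which passed the filter on low values through 1 group. In the upward direction 10.9% of all tested genes were called, and in the downward direction 12.9%. The log2 fold change, taken on log2(normalized count + 1), was above 0 for 53 RR genes and below 0 for 19, with a median of 1.16 beside 0.02 over all tested genes. It ran from -6.45 for Cpr49Ab to 4.93 for Cpr11A.

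The number of calls depended on each library in the fit. Without control replicate 1, 59 RR genes passed, 46 higher and 13 lower, beside 47.4% of all tested genes, and these 59 included the 24. Without any one of the other 5 libraries 0 to 2 passed in limma. Between 27 and 37 of the 72 (37.5% to 51.4%) then had an unadjusted p-value under 0.05, beside 29.4% to 37.2% of all tested genes. With all libraries the adjusted p-values of the 24 calls lay between 0.028 and 0.049, close to the threshold. On whole reads recovered from the deposited values, edgeR's quasi-likelihood test called 13 RR genes, 4 higher and 9 lower, beside 22.0% of all tested genes (9.13% higher and 12.9% lower). DESeq2 called 34, 21 higher and 13 lower, beside 39.8% (18.8% higher and 21.0% lower), and gave no adjusted p-value for 2. The 13 genes of edgeR were also called by limma and DESeq2.

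**Figure D2:**
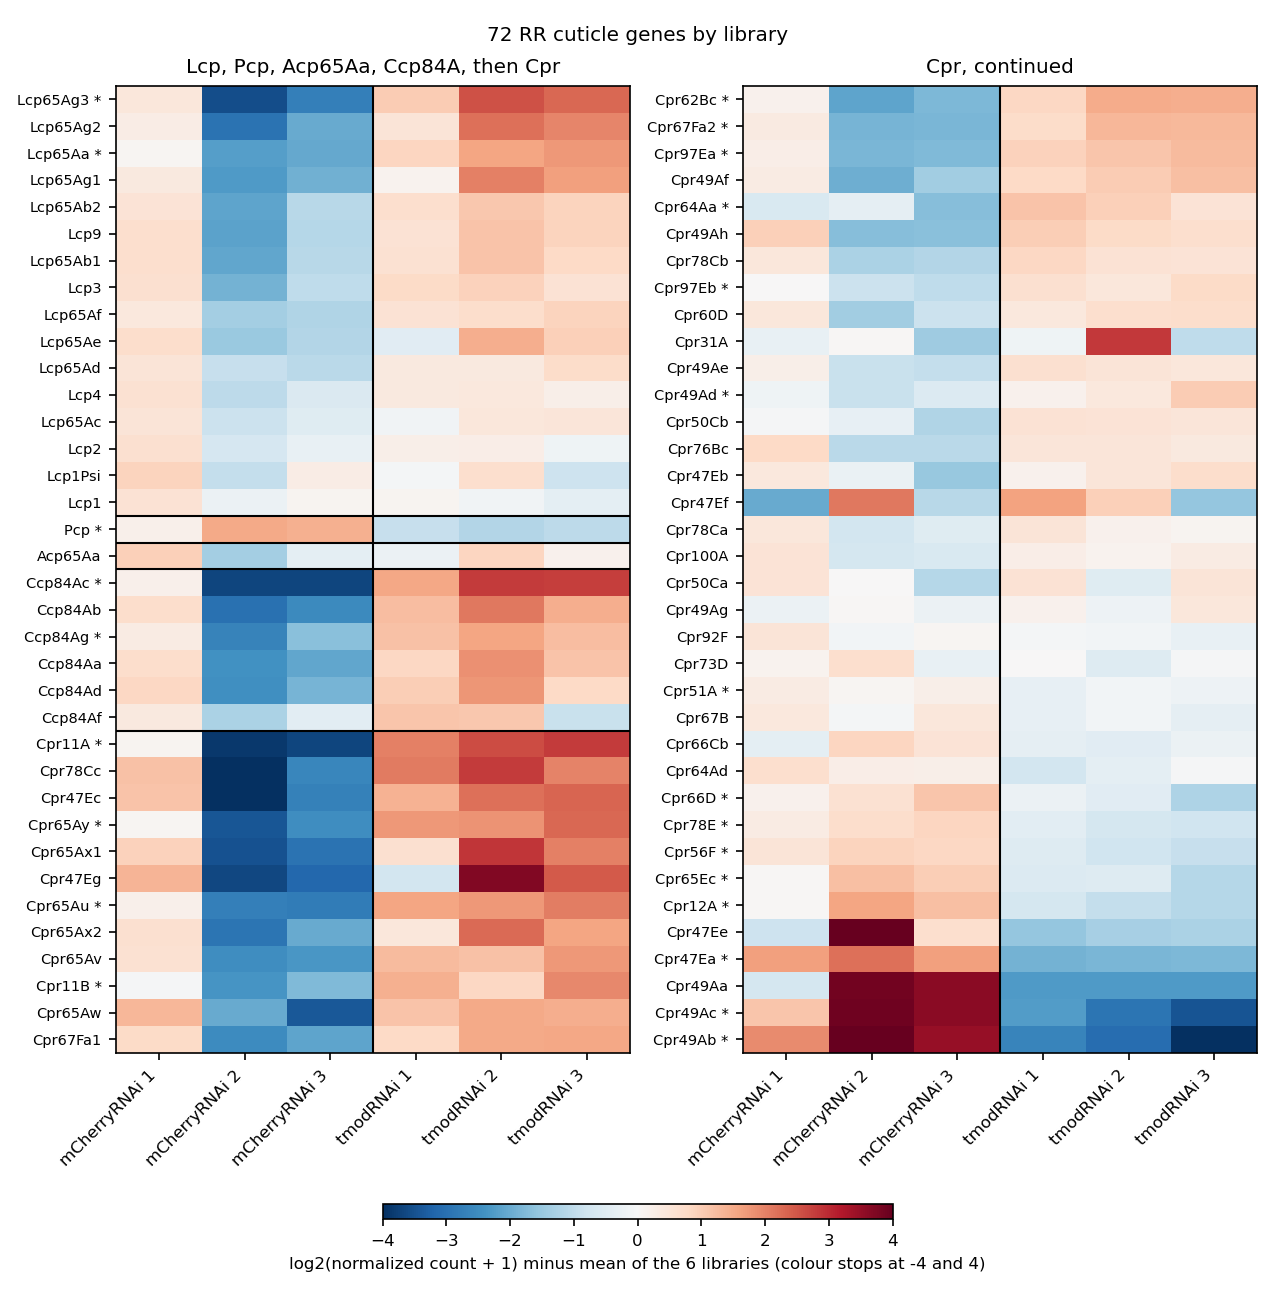
Level of the 72 RR genes (rows) in the 6 libraries (columns) as log2(normalized count + 1) minus the mean of the gene over the 6 libraries. An asterisk marks the 24 genes with an adjusted p-value under 0.05, and horizontal lines separate the Lcp, Pcp, Acp65Aa, Ccp84A and Cpr genes, each ordered by log2 fold change. Lcp and Ccp84A genes are lowest mainly in control replicates 2 and 3, and Pcp and the last Cpr genes are highest in those libraries.

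Lcp1, Lcp2, Lcp3 and Lcp4, which encode the major proteins of the late larval body wall cuticle, did not pass the test. Lcp1 (FBgn0002531) had 4583803, 2641408 and 3288602 normalized counts in control replicates 1 to 3 and 3302206, 2772688 and 2328578 in the knockdown libraries. The groups overlapped, with control replicate 1 above the other libraries (log2 fold change -0.30, SE 0.48, adjusted p = 0.66, limma). Lcp2 (FBgn0002533) had 1732297, 699914 and 912573 in the controls and 1328674, 1357497 and 1002269 in the knockdown, again with the highest value in control replicate 1. Its log2 fold change of 0.24 (SE 0.43, adjusted p = 0.69, limma) changed sign under quantile normalization and without control replicate 2.

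Lcp3 (FBgn0002534) had 3005696, 521323 and 953589 normalized counts in control replicates 1 to 3 and 3256057, 3686497 and 2873827 in the knockdown libraries. Control replicate 1 fell inside the range of the knockdown, and control replicates 2 and 3 fell far below it (log2 fold change 1.51, SE 0.70, adjusted p = 0.15, limma). Lcp4 (FBgn0002535) had 4887417, 1542367 and 2156868 in the controls and 4212500, 4261593 and 3752910 in the knockdown, and its log2 fold change of 0.68 (SE 0.59) did not pass. Neighbouring genes of the same 44D group differed in how far control replicates 2 and 3 lay below control replicate 1: the log2 difference of control replicate 1 from the mean of replicates 2 and 3 was 0.64 for Lcp1, 1.12 for Lcp2, 1.42 for Lcp4 and 2.09 for Lcp3. The pseudogene Lcp1Psi had 22.5 to 82.3 normalized counts in any library, so little of the Lcp signal was assigned to it.

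Per kilobase of exon, by group mean, Lcp4, Lcp1 and Lcp3 stood at the top of the family. Lcp4 had a mean of 3613911 normalized counts per kilobase in the controls and 5146045 in the knockdown, the first rank in both groups. Among the controls Lcp4 was above Lcp1 only in replicate 1, with 6170981 against 4304041. Lcp1 was above Lcp4 in control replicates 2 (2480195 against 1947433) and 3 (3087889 against 2723318). In control replicate 2 Cpr49Ac, at 989178, was also above Lcp2 (755031) and Lcp3 (714141). Lcp1 had rank 2 in the controls with 3290708 and rank 3 in the knockdown with 2630195, and Lcp3 had rank 3 in the controls with 2045940 and rank 2 in the knockdown with 4482366. Per kilobase Lcp1 was above Lcp3 in each of the 3 control libraries and below it in each of the 3 knockdown libraries. In control replicate 1 the values were close, at 4304041 for Lcp1 and 4117392 for Lcp3. The order of the genes was not tested. A level per kilobase assumes even coverage of the exons.

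Lcp9 (FBgn0025578), another larval cuticle gene, had 179144, 25427 and 50629 normalized counts in control replicates 1 to 3 and 167246, 246502 and 204991 in the knockdown. Control replicate 1 again lay within the knockdown range (log2 fold change 1.73, SE 0.69, adjusted p = 0.11, limma). Lcp65Ab2 (FBgn0020643), the most abundant RR gene of the 65A cluster, had 741223, 116962 and 233150 in the controls and 804845, 1072336 and 942617 in the knockdown. Its groups did not overlap, but the gap between control replicate 1 and the lowest knockdown library was small beside the spread of the controls, and it did not pass (log2 fold change 1.78, SE 0.66, adjusted p = 0.092).

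Among the 16 Lcp genes 2 passed as higher by limma (12.5%, near the 10.9% of all tested genes) and 0 as lower. In limma 8 of the 16 had an unadjusted p-value under 0.05, beside 44.7% of all tested genes, and edgeR called 0 and DESeq2 4. Lcp65Aa (FBgn0020645) rose from 2677, 553 and 622 normalized counts in the controls to 4653, 7561 and 8393 in the knockdown (log2 fold change 2.77, SE 0.63, adjusted p = 0.036, limma). Lcp65Ag3 (FBgn0086611) rose from 4856, 308 and 537 to 7246, 20759 and 17452 (log2 fold change 3.89, SE 1.06, adjusted p = 0.047). Both had their highest control value in replicate 1, and neither was called by edgeR. Lcp65Ag3 shares 543 exonic bases with asRNA:CR46005 on the opposite strand, and no strand setting is known, so reads of this gene and of the antisense RNA cannot be told apart.

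Lcp65Ag1 (log2 fold change 2.52, adjusted p = 0.069, limma) and Lcp65Ag2 (3.12, 0.052) did not pass. Lcp65Ab1, Lcp65Ac, Lcp65Ad, Lcp65Ae and Lcp65Af had log2 fold changes from 0.55 for Lcp65Ac to 1.67 for Lcp65Ab1, and none passed (adjusted p from 0.077 to 0.30). Control replicate 1 was above control replicates 2 and 3 for each of the 16 Lcp genes, beside 39.7% of all tested genes. Lcp65Ab1 and Lcp65Ab2, Lcp65Ag1 to Lcp65Ag3, Cpr65Ax1 and Cpr65Ax2, and Cpr67Fa1 and Cpr67Fa2 are near-identical copies, and how the authors' counting divided reads among them is not known.

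Pcp (FBgn0003046), a pupal cuticle gene, went the other way. It had 71851, 176274 and 168155 normalized counts in control replicates 1 to 3 and 32605, 27673 and 29856 in the knockdown libraries. The groups did not overlap, control replicate 1 lay between the other controls and the knockdown, and the control mean was 4.62 times the knockdown mean (log2 fold change -2.10, SE 0.36, adjusted p = 0.031, limma, and 0.032 in edgeR). Pcp lies at 7021682 to 7022470 on chromosome 2L in BDGP6.54, inside an intron of Gart on the opposite strand, with no exonic overlap. Without control replicate 1 the log2 fold change was -2.52.

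Among the prepupal genes, Edg84A was at 0 in each of the 6 libraries, below the 2.41 to 3.31 normalized counts that 3 reads give. Edg78E, an RR gene whose symbol the family pattern does not cover, rose from 155, 18.5 and 18.2 normalized counts in the controls to 465, 619 and 211 in the knockdown (log2 fold change 3.34, adjusted p = 0.047, limma), although edgeR did not call it. The adult gene Acp65Aa (FBgn0020765) had 1899, 378 and 750 in the controls and 829, 1755 and 1092 in the knockdown, and the groups overlapped (log2 fold change 0.52, SE 0.61, adjusted p = 0.53). Its direction turned without control replicate 2 (log2 fold change -0.033).

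**Figure D3:**
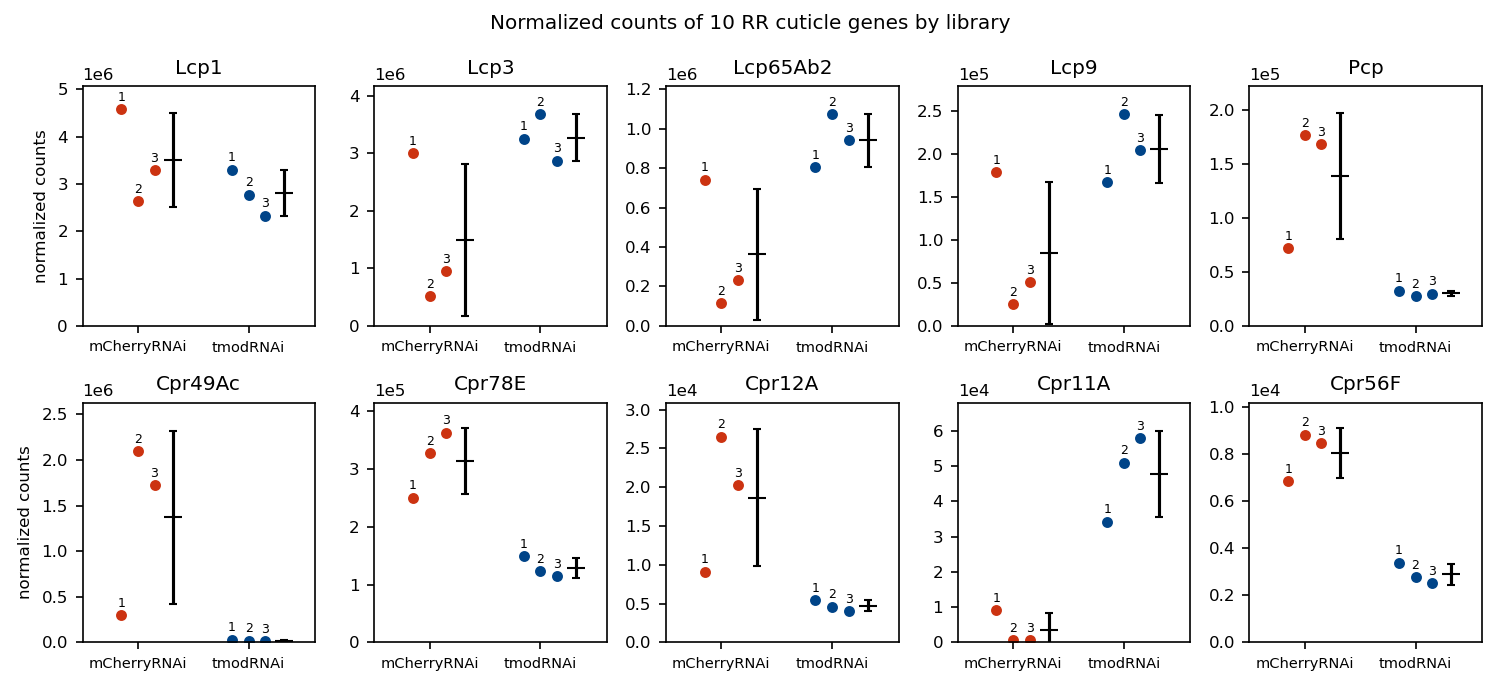
Normalized counts (y axis, each panel from 0) of 10 RR genes in the 3 control libraries (red) and the 3 knockdown libraries (blue), with the replicate number above each point and the mean ± SD of the group in black (bars stop at 0). In Lcp3, Lcp65Ab2 and Lcp9 control replicate 1 sits with the knockdown and control replicates 2 and 3 sit below it. In Cpr56F and Cpr78E the 3 controls sit together, above the 3 knockdown libraries.

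Of the 48 Cpr genes, 10 were higher and 9 lower in the knockdown by limma. These calls are 39.6% of the Cpr genes, beside 23.8% of all tested genes (10.9% higher and 12.9% lower). The largest fall in reads was that of Cpr49Ac (FBgn0033725), with 300284, 2094090 and 1724172 normalized counts in control replicates 1 to 3 and 30139, 18434 and 12714 in the knockdown. The lowest control value was that of replicate 1, and it was still well above the highest knockdown value. The control mean was 67.2 times the knockdown mean (log2 fold change -5.74, SE 0.79, adjusted p = 0.031, limma). By group mean per kilobase, Cpr49Ac had rank 7 among the 72 genes in the controls, at 648488 normalized counts. In the knockdown it had rank 28, at 9650. The control libraries differed, with 141844, 989178 and 814441 per kilobase in replicates 1 to 3.

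Cpr49Ab (FBgn0050042), the neighbour of Cpr49Ac, fell from 577, 3073 and 1765 normalized counts to 24.2, 18.1 and 8.82 (log2 fold change -6.45, SE 0.67, adjusted p = 0.028, limma). Cpr49Aa, next to it and named here after its values were seen, had 1.96, 68.4 and 57.7 in the controls and 0 in each knockdown library, a mean at least 13.4-fold lower when 0 is set to 3 reads per library. It did not pass (adjusted p = 0.053), and its value in control replicate 1 was itself below 3 reads. For both genes control replicate 1 held the lowest control value.

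Other falls were smaller and steadier across the controls. Cpr78E (FBgn0037114) fell from 250469, 327564 and 362913 normalized counts to 149014, 122801 and 114754 (log2 fold change -1.28, SE 0.20, adjusted p = 0.031, limma). Cpr56F (FBgn0034499) fell from 6837, 8814 and 8455 to 3376, 2781 and 2518 (log2 fold change -1.48, SE 0.15, adjusted p = 0.028). In these 2 genes the controls lay close together beside the distance between the groups, and the log2 difference from control replicate 1 alone was -0.97 for Cpr78E and -1.25 for Cpr56F.

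Cpr47Ea fell from 57.8, 85.3 and 57.7 normalized counts to 4.04, 4.26 and 4.41, which is 4 reads in each knockdown library (log2 fold change -3.67, SE 0.32, adjusted p = 0.028, limma). It passed the filter on low values through the controls alone, so its call is a description only. The 3 controls of Cpr47Ea held similar values, and 163 of its exonic bases overlap Or47a on the opposite strand. Cpr12A had 9113, 26497 and 20299 in the controls and 5439, 4622 and 4030 in the knockdown, with control replicate 1 in between (log2 fold change -1.87, SE 0.39, adjusted p = 0.033). Cpr65Ec fell from 162, 356 and 307 to 105, 109 and 69.5 (log2 fold change -1.48, adjusted p = 0.037). Among the 10 genes called lower, Pcp included, control replicate 1 was the lowest control for 8.

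The largest rise was that of Cpr11A (FBgn0030394) on the X chromosome, with 9139, 585 and 659 normalized counts in the controls and 34193, 50900 and 57950 in the knockdown. Control replicate 1 was well above the other controls and still below the lowest knockdown library (log2 fold change 4.93, SE 1.07, adjusted p = 0.034, limma). Cpr11B, also X-linked, rose from 3414, 687 and 1024 to 9462, 6255 and 13282 (log2 fold change 2.78, SE 0.62, adjusted p = 0.035), and the knockdown mean was 5.66 times the control mean. Of these, edgeR called Cpr11B (adjusted p = 0.049) and not Cpr11A (0.069).

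Cpr65Ay rose from 573, 50.7 and 97.3 normalized counts in the controls to 1841, 1902 and 2672 in the knockdown (log2 fold change 3.88, SE 0.86, adjusted p = 0.034, limma). Smaller rises passed in Cpr65Au (log2 fold change 3.57, adjusted p = 0.036), Cpr62Bc (2.51, 0.039) and Cpr67Fa2 (2.22, 0.049). Cpr65Au overlaps the antisense RNA asRNA:CR46005 over 491 exonic bases, so its rise shares the uncertainty of Lcp65Ag3. None of these 4 passed in edgeR. Among the 14 genes called higher, Lcp and Ccp84A genes included, control replicate 1 was above both other controls for 13.

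Several of the most abundant Cpr genes did not pass. Cpr60D had 65708, 18226 and 26404 normalized counts in the controls and 63567, 76683 and 78401 in the knockdown, with control replicate 1 inside the knockdown range (log2 fold change 1.20, SE 0.46, adjusted p = 0.098, limma). Cpr47Ec had 31449, 713 and 2216 in the controls and 37729, 66328 and 71826 in the knockdown, with control replicate 1 far above the other controls (log2 fold change 3.94, SE 1.34, adjusted p = 0.074). Cpr67B had 95243, 67650 and 97128 in the controls and 56186, 65155 and 55647 in the knockdown, with no overlap but a narrow gap (log2 fold change -0.54, SE 0.17, adjusted p = 0.067). Cpr92F had a log2 fold change of -0.32 (SE 0.17, adjusted p = 0.19), and its groups overlapped.

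Cpr49Af (log2 fold change 2.00, adjusted p = 0.051, limma), Cpr65Av (2.79, 0.056) and Cpr65Aw (2.73, 0.12) did not pass either. For each of them control replicate 1 was the highest control. In Cpr65Aw it held 16829 normalized counts against 1631 and 629, inside the knockdown range of 14685 to 18980. Cpr31A and Cpr47Ef, named after their values were seen, followed no group: Cpr31A had 265 normalized counts in knockdown replicate 2 and 12.8 to 37.8 elsewhere, and Cpr47Ef had 67.6 in control replicate 2, 2.94 and 6.41 in the other controls and 4.41 to 47.5 in the knockdown.

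The position of control replicate 1 was then counted over the family, as a description with no test. It was above control replicates 2 and 3 for 54 of the 72 genes (75%), beside 39.7% of all tested genes, and below them for 12 (16.7%), beside 43.6%. It was above their mean by at least 1 on the log2 scale for 47 RR genes, beside 8.20% of all tested genes, and below it by as much for 9, beside 7.94%. It lay inside the range of the knockdown libraries for 19, beside 29.5%. The median log2 difference of control replicate 1 from the other controls was 1.56 over the 72 genes and -0.01 over all tested genes. The knockdown mean differed from control replicate 1 alone by a median of 0.17 and from control replicates 2 and 3 by a median of 1.54. These differences share libraries, so they are not separate results.

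Control replicates 2 and 3 lay below each knockdown library for 48 of the 72 genes (66.7%), beside 34.6% of all tested genes, and above each of them for 15 (20.8%), beside 35.3%. For 15 of the 72 (20.8%) control replicate 1 lay inside the knockdown range while replicates 2 and 3 lay below it, beside 7.59% of all tested genes. Among only the genes with replicates 2 and 3 below the knockdown, the corresponding shares were 31.3% and 21.9%. With control replicate 1 included, the groups did not overlap for 41 RR genes (56.9%), 27 with the knockdown above and 14 with it below, beside 51.4% of all tested genes (25.0% above and 26.4% below). With the 3 controls pooled, the share of RR genes without overlap was thus near that of all tested genes.

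Many RR genes lie side by side. In the BDGP6.54 annotation, which shares the dm6 coordinates named in the submitters' processing notes, 53 of the 72 genes fell into 10 groups in which neighbouring members start within 50 kb of each other. The largest group holds 17 genes on chromosome 3L from 6130386 to 6158630 (Lcp65A genes, Cpr65Au to Cpr65Ay and Acp65Aa). Each of the 17 had a log2 fold change above 0, from 0.52 to 3.89 with a median of 2.73, and 4 passed as higher by limma (23.5%, beside 10.9% of all tested genes). In edgeR 0 of them passed, in DESeq2 8 (beside 39.8% of all tested genes), and 12 had an unadjusted p-value under 0.05 in limma (beside 44.7%). Control replicate 1 exceeded the mean of control replicates 2 and 3 by at least 1 on the log2 scale for each of the 17, and without it 16 of them passed, beside 47.4% of all tested genes.

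The 6 Ccp84A genes on chromosome 3R, from 6686728 to 6704903, had log2 fold changes from 0.86 to 4.75. Of these, 2 passed as higher by limma (33.3%, beside 10.9% of all tested genes). Ccp84Ag rose from 292, 35.4 and 72.7 normalized counts to 527, 690 and 552 (log2 fold change 2.67, SE 0.73, adjusted p = 0.048, limma). Ccp84Ac rose from 13.7, 0 and 0 to 36.4, 87.4 and 86 (log2 fold change 4.75, SE 1.15, adjusted p = 0.039), and it passed the filter on low values through the knockdown libraries. Neither was called by edgeR. Ccp84Aa, Ccp84Ab and Ccp84Ad did not pass, with log2 fold changes of 2.53, 3.21 and 2.34 in that order and limma adjusted p-values of 0.071, 0.058 and 0.088. Ccp84Af, at 4.83 to 29.3 normalized counts, did not pass either (adjusted p = 0.40).

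The 8 genes of the 49A group on chromosome 2R, from 12376626 to 12415170, did not move together. Cpr49Ab and Cpr49Ac fell and Cpr49Ad rose, the last from 548, 333 and 423 normalized counts to 694, 822 and 1256 (log2 fold change 1.07, SE 0.28, adjusted p = 0.043, limma; named after its values were seen). The 3 genes at one end of the group, Cpr49Aa to Cpr49Ac, had log2 fold changes from -6.45 to -4.52, and the other 5 had values above 0, up to 2.00 for Cpr49Af. In the 47E group, also on chromosome 2R, 1 of 6 genes was called lower by limma (16.7%, near the 12.9% of all tested genes). This gene was Cpr47Ea, which passed the filter through the controls alone. In the same group 4 of 6 genes had a log2 fold change above 0, of which that of Cpr47Ef turned without control replicate 1. The 5 genes of the 44D group (Lcp1 to Lcp4 and Lcp1Psi) held 0 calls by limma, edgeR and DESeq2 and 0 unadjusted p-values under 0.05 in limma.

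**Figure D4:**
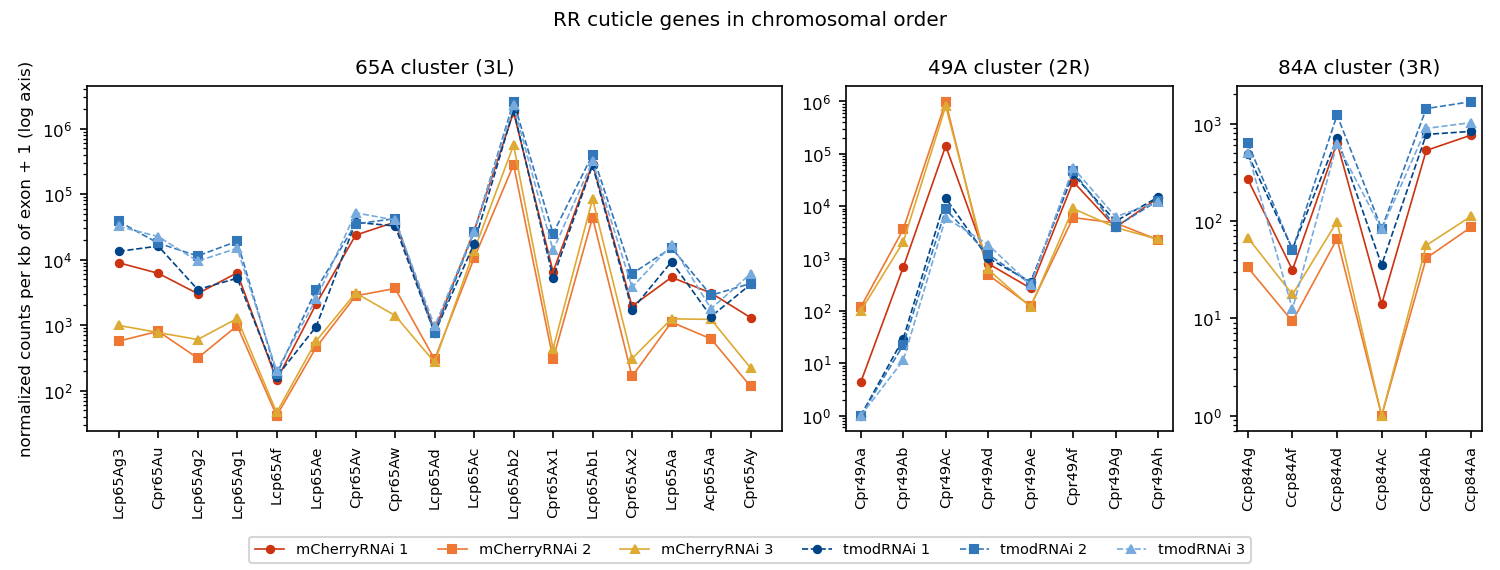
Normalized counts per kilobase of exon plus 1 (log axis) of the RR genes in the 65A, 49A and 84A groups, in chromosomal order along the x axis, with 1 line per library. In the 65A group the lines of control replicates 2 and 3 run below the other 4 at every gene. In the 49A group they run above the others at Cpr49Aa, Cpr49Ab and Cpr49Ac and below the knockdown from Cpr49Ad on, except at Cpr49Ag, where the libraries mix.

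Other genes of cuticle formation were read from lists chosen with earlier results of these data known. For comparison with the counts below, limma called 10.9% of all tested genes higher and 12.9% lower, and 44.7% had an unadjusted p-value under 0.05. In either direction edgeR called 22.0% of all tested genes and DESeq2 39.8%. The lists are short, and whether their counts depart from these shares was not tested. In the Tweedle family, a second group of cuticle proteins, 2 of 14 tested genes were higher and 3 lower by limma (26 in the table), among them TwdlX (log2 fold change 2.33, adjusted p = 0.032), TwdlN (-2.79, 0.032) and TwdlE (-1.79, 0.034). Of 13 tested genes of chitin synthesis and turnover 2 were higher and 3 lower, with 8 log2 fold changes above 0, 5 below and a median of 0.65. The lower genes were the chitinases Cht2 (log2 fold change -0.79), Cht5 (-1.54) and Cht10 (-0.94), whereas the chitinases Cht6 (1.87, adjusted p = 0.065) and Cht7 (0.65, 0.099) did not pass, and the higher genes were mmy (1.22) and Cda5 (1.13). Of 6 tested genes of peritrophin-like cuticle proteins 0 were called by limma, with 3 at an unadjusted p-value under 0.05, 0 in edgeR and 2 in DESeq2, and their median log2 fold change was 1.11. Of 8 tanning genes 2 were lower, Ddc (log2 fold change -4.50, adjusted p = 0.031) and b (-4.04, 0.045), whose products make dopamine and beta-alanine for the hardening cuticle.

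Genes of the ecdysone response differed in the same libraries. Of 20 such genes 6 were lower and 1 higher in the knockdown by limma, beside 12.9% and 10.9% of all tested genes, with a median log2 fold change of -0.95. EcR, the ecdysone receptor gene, had 36815, 54434 and 58477 normalized counts in the controls and 27657, 22837 and 20209 in the knockdown (adjusted p = 0.031). Kr-h1, a juvenile hormone response gene (log2 fold change -0.70, adjusted p = 0.031), and Eip74EF, an early ecdysone gene (-0.82, 0.037), were lower. The gene called higher was ftz-f1, a nuclear receptor of the prepupa (1.18, 0.047). The list summed to 428510 in control replicate 1, to 573174 and 607363 in control replicates 2 and 3 and to between 259610 and 329359 in the knockdown, with no gene at 0. Control replicate 1 thus lay between the other controls and the knockdown, as it did for Pcp and Cpr49Ac. The part of this difference in the RR results was not tested.

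Markers of cell types present in a body wall lysate were set beside the RR genes. The shares of all tested genes to hold against their counts were 10.9% called higher and 12.9% called lower by limma. In either direction they were 22.0% in edgeR and 39.8% in DESeq2, and 44.7% had an unadjusted p-value under 0.05 in limma. Of 14 markers of epidermis and cuticle-secreting epithelium 0 were higher and 1 lower (Ddc, also in the tanning list), with a median log2 fold change of 0.00, 7 values above 0 and 7 below, from -4.50 for Ddc to 1.96 for verm. This list shares kkv, knk, rtv, verm and serp with the chitin list and Ddc and ple with the tanning list, so these lists are not separate results. In the epidermal list 5 genes had an unadjusted p-value under 0.05, edgeR called 1 and DESeq2 called 4. The epidermal list summed to 647162, 1064188 and 580489 in the controls and to between 571248 and 622965 in the knockdown, with the excess of control replicate 2 in ple, which had 529109 there. Of 7 tracheal markers 0 were called by limma, with 3 at an unadjusted p-value under 0.05, 0 in edgeR and 2 in DESeq2. Their log2 fold changes were above 0 for 3 and below 0 for 4, with a median of -0.20. The tracheal list summed to 226503, 132601 and 144228 in the controls and to between 245549 and 256178 in the knockdown. The largest change in that sum was in Gasp, also in the list of peritrophin-like cuticle proteins. Gasp had 116954, 38913 and 48513 in the controls and 137886 to 149252 in the knockdown.

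Of the 15 muscle markers 9 were higher and 0 lower by limma, beside 10.9% of all tested genes called higher, with log2 fold changes from 0.52 to 2.35. In edgeR 2 of the 15 were called and in DESeq2 all 15. Of 7 tested fat body markers 3 were higher by limma, again beside 10.9% (Lsp1alpha, Lsp1beta and Lsp1gamma, with log2 fold changes of 2.53, 2.30 and 2.20). The fat body list summed to between 167908 and 269101 in the controls and to between 306314 and 983907 in the knockdown. Of 8 hemocyte markers 2 were higher and 2 lower by limma, beside 10.9% and 12.9% of all tested genes. The higher genes were PPO1 (log2 fold change 0.82) and PPO2 (0.75), and the lower ones crq (-0.45) and He (-0.47). Over the 8 hemocyte markers the median was 0.07, with 5 values above 0 and 3 below. The hemocyte list summed to between 182290 and 234708 in the controls and between 257431 and 328203 in the knockdown. The largest changes in that sum were in PPO1, PPO2 and Hml. The 7 salivary gland markers were low, summing to between 226 and 3492 in any library, with 0 calls by limma or edgeR, 1 in DESeq2 and 1 unadjusted p-value under 0.05. In bulk lysates fewer cells of a type and less RNA per cell cannot be told apart, and the part of these marker differences in the RR results was not tested.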

How the data were processed

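The authors deposited 1 table of normalized counts, a signal that is never negative, per gene and library. The submitters' processing notes name DESeq2 1.30.1 and the build dm6. The aligner, counter, annotation and strand setting are not given in the sources used here. Dividing a library's values by its smallest value above 0 gave whole numbers for 100% of them (tolerance 0.001), and these were used as recovered reads.

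Genes averaging 10 or more (10969) were tested on log2(normalized count + 1) with limma 3.58.1 (trended eBayes, R 4.3.3) and Benjamini-Hochberg adjustment, threshold 0.05. Alternatives included edgeR 4.0.16 and DESeq2 1.42.0 on recovered reads. The limma, edgeR and DESeq2 tests were tested on simulated data. The simulated controls shared the same mean in each gene, with no library standing apart. The simulation therefore cannot speak to how the calls depend on control replicate 1.

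The members and lists were chosen with earlier results of these data known. Named genes are the Lcp, Pcp, Acp65Aa and Ccp84A genes, the 10 most abundant Cpr genes, the 6 largest rises and 6 largest falls among called Cpr genes, and up to 3 called genes per list. Others were chosen after their values were seen. Positions and exon lengths come from Ensembl BDGP6.54 (17710 of 17807 identifiers found).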

Additional observations from a re-analysis of the deposited data

How the results depend on the processing

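The count of 24 RR genes past the threshold lay between 20 and 25 with pseudocounts of 0.1 and 10, without a filter, at a mean of at least 50, under median centring, under quantile normalization and with a log2 fold change of at least 1 required, and was 34 in DESeq2. It became 13 of 72 in edgeR, beside 2417 of 10969 tested genes (22.0%), and 6 of 72 in limma without the trend, beside 954 of 10969. The share of RR genes thus lay below that of all tested genes in edgeR and near it without the trend. The count of RR genes ranged from 0 to 59 over the 6 fits that each left out a library. The count over all tested genes, 2613, became 4364 in DESeq2, 954 in limma without the trend and 1084 with the log2 threshold, and ranged from 0 to 5203 without a library. In the 65A cluster 4 genes passed, against 8 in DESeq2, 0 in edgeR, 0 in limma without the trend and 0 to 16 without a library. The median log2 fold change of the RR genes ranged from 1.01 to 1.54 without a library and stayed above 1 under the other alternatives. The median difference of control replicate 1 from replicates 2 and 3, 1.56, became 1.41 with a pseudocount of 10 and 1.83 at a mean of at least 50, and ranged from 1.61 to 1.74 against a single other control. Over the 16 alternative fits the direction turned for 6 of the 72 RR genes, none of them among the 24 that passed. It turned for Lcp2 under quantile normalization (-0.20) and without control replicate 2 (range without a library -0.046 to 0.61), for Acp65Aa without control replicate 2 (range -0.033 to 1.13), and for Lcp1Psi without control replicate 1 or knockdown replicate 3 (0.21, range -0.67 to 0.24). It also turned for Cpr47Ef without control replicate 1 (-0.17), for Cpr31A without knockdown replicate 2 (-0.025), and for Cpr50Ca under quantile normalization (-0.10) and without control replicate 3 (-0.069). The cause was not tested. The log2 fold change of tmod ranged from -2.62 to -2.42 without a library and passed in 3 of those 6 fits (adjusted p up to 0.10).

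With the replicate number as a block, 0 RR genes, 0 genes of the 65A cluster and 0 of all tested genes passed in limma. In that fit 38 RR genes (52.8%) had an unadjusted p-value under 0.05, beside 36.2% of all tested genes. The log2 fold change of tmod stayed at -2.54, with an adjusted p-value of 0.096. Deviations of same-numbered libraries correlated at -0.06, 0.02 and -0.02. With 3 libraries per group and no batch in the labels, these values cannot decide whether same-numbered libraries were paired. Depth limited only genes near the 3-read floor, such as Cpr49Aa, Cpr47Ea and Ccp84Ac.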

Other observations

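Genes of tanning and of the ecdysone response, named after their values were seen, differed widely among the 3 controls. The tyrosine hydroxylase gene ple had 529109 normalized counts in control replicate 2, 6809 and 42090 in control replicates 1 and 3, and 5059 to 7966 in the knockdown. The gene e, whose product joins beta-alanine to dopamine, had 200252 in control replicate 2 and 28.3 to 113 in the other 5 libraries. The ecdysone-response receptor gene Hr4 had 299 in control replicate 1, 6295 and 6031 in control replicates 2 and 3, and 181 to 258 in the knockdown. None of these 3 passed in limma (adjusted p = 0.16, 0.34 and 0.078 in that order).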
